A study of Mus musculus with 6 samples.

Results

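The genes that set the pace of the G1 phase of the cell cycle were followed by RNA-seq in the epidermis of mice, the layered outer epithelium of skin. They were the 10 genes of a list of names: the D-type cyclin genes Ccnd1, Ccnd2 and Ccnd3, the kinase genes Cdk4 and Cdk6, the kinase inhibitor genes Cdkn1b, Cdkn2a, Cdkn2b and Cdkn2c, and the retinoblastoma gene Rb1. All 10 were found among the 54532 genes of the deposited count table. Epidermis of newborn mice labelled Paxbp1 knockout (3 libraries) was compared with epidermis of newborn mice labelled wild type (3 libraries). In both groups fat and dermis were taken off and the skin was left in Dispase II before the epidermis was peeled away. The labels give neither the strain, the deleted part of Paxbp1 nor the cells in which it was deleted, and they do not say whether a library came from 1 animal.

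In G1, growth signals raise the D-type cyclins, which bind and activate CDK4 and CDK6. These kinases begin to phosphorylate the retinoblastoma protein, which then lets go of the E2F transcription factors that drive genes of DNA synthesis. The INK4 inhibitors, encoded by Cdkn2a, Cdkn2b, Cdkn2c and Cdkn2d, bind CDK4 and CDK6 directly, while the CIP/KIP inhibitors, among them the Cdkn1b product p27, bind cyclin-kinase complexes and above all hold back CDK2. In epidermis, dividing cells lie in the basal layer and keratinocytes leave the cycle as they move up.

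Library totals ran from 16315317 to 17816327 counts, and totals were similar in the knockout and wild type groups. Paxbp1 itself does not check the labels: its counts were 2370, 1127 and 1125 in the libraries labelled knockout and 2007, 1159 and 1467 in those labelled wild type, and a deletion of single exons need not lower a count over the gene. All directions below are those of the libraries as labelled. Libraries of the 2 groups also differed in markers of cell types. The summed level of 11 keratinocyte markers was 4685 to 11904 CPM (counts scaled to library size) in knockout and 82014 to 135479 CPM in wild type libraries, and 10 of the 11 were lower. All 10 macrophage markers were higher, with sums of 9990 to 18773 CPM in knockout and 169 to 186 CPM in wild type libraries. Of 10 fibroblast markers 8 were higher and 2 lower, with sums of 3722 to 9443 CPM in knockout and 992 to 1034 CPM in wild type libraries. All 5 tested of 8 neutrophil markers were higher. The list summed to 3267 to 8156 CPM in knockout and 1.86 to 2.73 CPM in wild type libraries, where Ly6g and Retnlg had no count. Wild type counts were 0, 4 and 4 for S100a8, 3, 7 and 0 for S100a9 and 4, 0 and 2 for Cxcr2. These genes and Retnlg passed the filter on low counts only through the knockout libraries, so they could not be called lower. The same held for some markers of other lists, among them Cd163 and Cdh5 (1, 0 and 0 wild type counts each). All 4 tested of 6 endothelial markers were higher. The list summed to 194 to 365 CPM in knockout and 1.22 to 4.42 CPM in wild type libraries. Pecam1 alone had 166, 252 and 334 CPM in knockout libraries 1 to 3, so it made up most of the knockout sums. The 2 untested markers overlapped between the groups. Tek had 20, 0 and 2 counts in knockout and 9, 14 and 1 in wild type libraries. Emcn had 3, 0 and 2 counts in knockout libraries and none in wild type libraries. Of 4 melanocyte markers 1 was higher and 2 lower (134 to 269 CPM in knockout, 346 to 489 CPM in wild type libraries), and of 5 T cell markers 3 were lower (3.53 to 9.67 CPM in knockout, 12.4 to 28.4 CPM in wild type libraries). The most abundant markers of these lists were Krt1, Mrc1, Col1a1, S100a9, Pecam1, Dct and Cd3g. In such bulk samples a lower level cannot be split into fewer cells of a type and less RNA per cell. The part of these cell types in the results that follow was not tested.

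Of the 10 genes, 5 were lower in knockout epidermis (Ccnd1, Ccnd2, Cdk4, Cdkn2b and Cdkn2c), 2 were higher (Cdk6 and Rb1) and 2 did not pass the test (Ccnd3 and Cdkn1b). Cdkn2a had too few counts to be tested. The test was edgeR's quasi-likelihood test with Benjamini-Hochberg adjustment over all 16471 genes tested, at an adjusted p under 0.05. Over all these genes 25.1% were lower, 28.7% higher and 53.8% changed in either direction. The balance of directions depended on scaling: 4721 genes were higher and 4139 lower, but 4151 were higher and 5147 lower with upper-quartile scaling, and 4198 higher and 4715 lower with library size alone. The knockout and wild type libraries did not overlap for 7 of the 9 tested genes, where 62.3% of all genes tested did not overlap, so a lack of overlap does not set these genes apart. The median log2 fold change of the 9 genes was -1.27, and that of all genes tested -0.029.

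**Figure D1:**
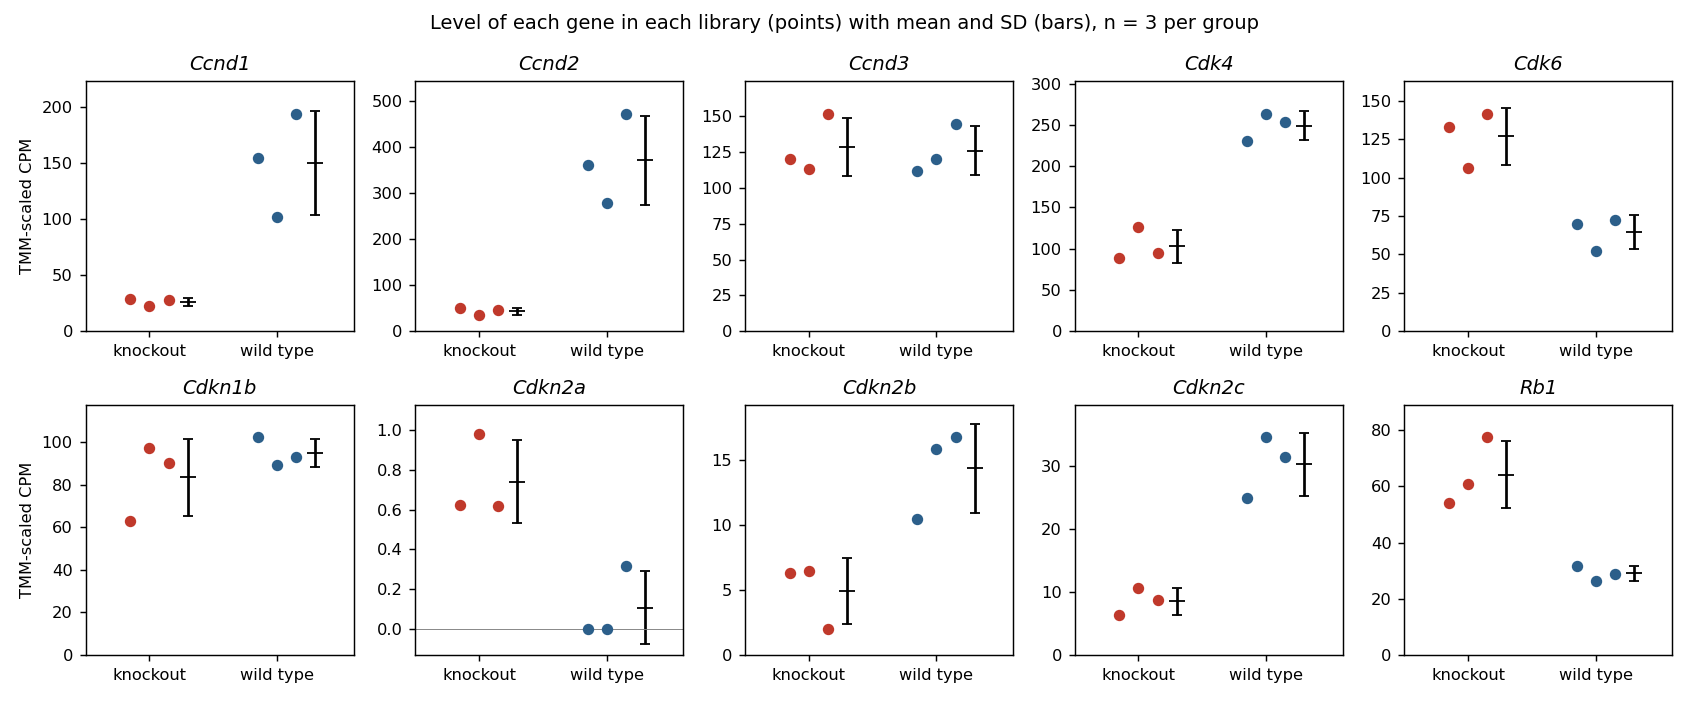
Each panel plots 1 gene, with TMM-scaled CPM on a linear axis, a point for each library (knockout on the left, wild type on the right), and the mean with SD beside each group (n = 3). The points of the groups are apart in every panel except those of Ccnd3 and Cdkn1b, and Cdk6, Rb1 and Cdkn2a are the panels with higher knockout points.

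Cyclin D1 and cyclin D2 transcripts were the most reduced of the 10 genes. Ccnd1, which encodes the cyclin that couples many growth signals to CDK4 and CDK6 (chromosome 7, 144929931 to 144939925, minus strand, mm10), had 28.4, 22.2 and 27.6 CPM in knockout libraries 1 to 3, against 154, 101 and 194 CPM in wild type libraries 1 to 3. Every knockout library lay below every wild type library, and the wild type libraries varied more. The mean was 26.1 ± 3.36 CPM in knockout and 150 ± 46.4 CPM in wild type epidermis (SD, n = 3 each), a log2 fold change of -2.52 ± 0.27 (SE, edgeR adjusted p = 1.89e-05), or 5.74-fold lower.

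Ccnd2, which encodes cyclin D2 (chromosome 6, 127125162 to 127152193, minus strand), was the gene with the most counts of the 10 in wild type epidermis. It had 49.7, 35.1 and 45.5 CPM in knockout libraries 1 to 3, against 361, 278 and 472 CPM in wild type libraries 1 to 3. The groups were far apart, and library 2 was the lowest of both groups, as it was for Ccnd1. The mean was 43.4 ± 7.50 CPM in knockout and 370.4 ± 97.2 CPM in wild type epidermis (SD, n = 3 each). The log2 fold change of -3.09 ± 0.28 (SE, edgeR adjusted p = 5.39e-06) corresponds to an 8.53-fold lower level.

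Ccnd3, which encodes the third D-type cyclin (chromosome 17, 47505051 to 47599691, plus strand), kept to the same range in both groups. It had 121, 113 and 152 CPM in knockout libraries 1 to 3, against 112, 120.5 and 145 CPM in wild type libraries 1 to 3. The log2 fold change was 0.03 ± 0.21 (SE, edgeR adjusted p = 0.912). Its fold had a 95% interval of 0.736 to 1.42, which leaves out reductions of the size seen for Ccnd1 and Ccnd2.

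Levels of different genes can be compared only per length, for which the deposited FPKM values (counts divided by the gene's length and by a constant for each library) were used. That constant was not the library total. It was 15486588 for knockout library 2, which had 17376752 counts, and 19109138 for wild type library 1, which had 16315317 counts. The 3 D-type cyclin genes together had 24.8, 21.1 and 28.1 FPKM in knockout libraries 1 to 3, against 80.4, 64.0 and 106 FPKM in wild type libraries 1 to 3. Ccnd3 made up 59.0 ± 3.68% of that sum in knockout and 17.2 ± 3.41% in wild type epidermis (SD, n = 3 each). Ccnd2 held 18.6 ± 2.15% in knockout and 46.0 ± 0.482% in wild type epidermis, and Ccnd1 held 22.4 ± 1.58% in knockout and 36.8 ± 3.15% in wild type epidermis. The most abundant D-type cyclin transcript per length was therefore Ccnd3 in all 3 knockout libraries and Ccnd2 in all 3 wild type libraries. Within a library the log2 ratio of Ccnd1 to Ccnd2 FPKM was 0.19, 0.34 and 0.28 in knockout libraries 1 to 3, against -0.23, -0.46 and -0.29 in wild type libraries 1 to 3 and was higher in every knockout library. The mean of the summed level differed by -58.7 FPKM and that of the log2 ratio of Ccnd1 to Ccnd2 by 0.60 between knockout and wild type epidermis. Each gave p = 0.1 in a two-sided exact permutation test, the smallest p that 3 against 3 libraries allow, and p = 0.1 after adjustment over the 4 such comparisons made. With libraries of the same number paired, the exact p of each of the 4 comparisons was 0.25, the smallest that 3 pairs allow.

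**Figure D2:**
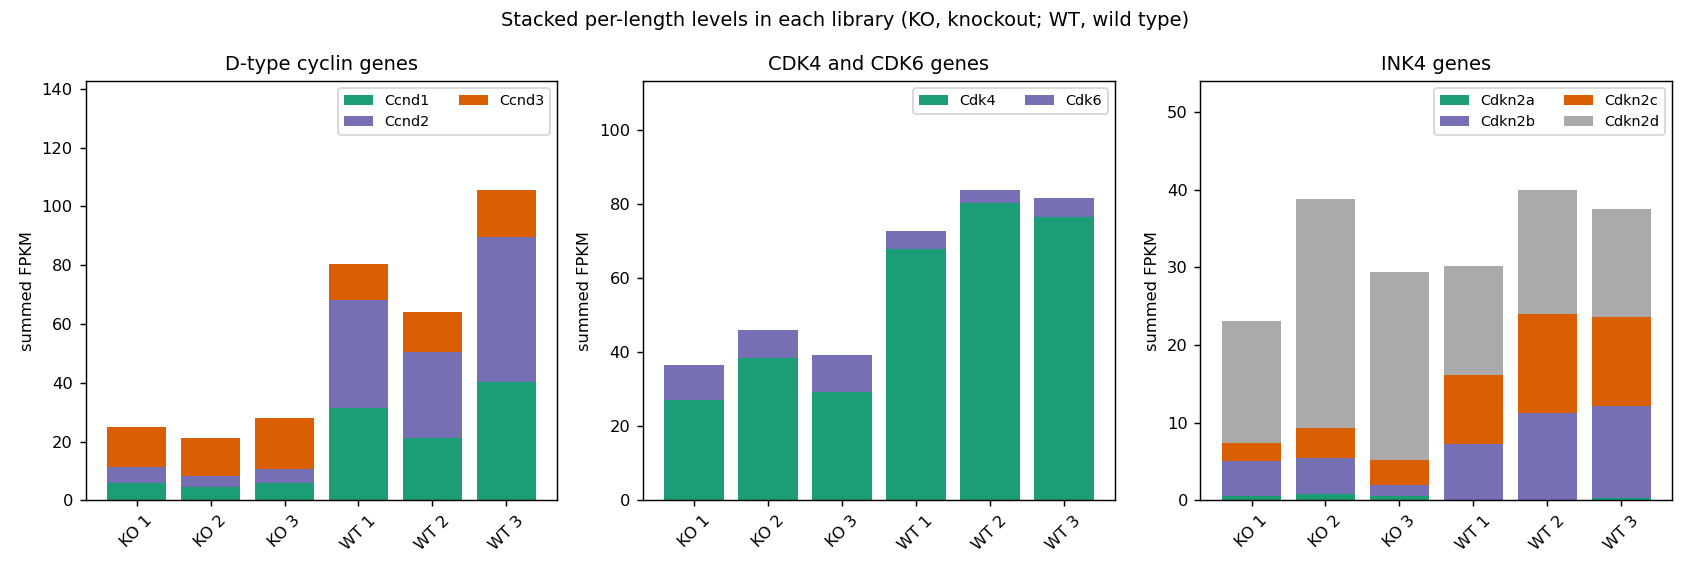
Stacked bars give the FPKM of the D-type cyclin genes, of Cdk4 and Cdk6, and of the INK4 genes (linear axes from 0) in each library, knockout (KO) on the left and wild type (WT) on the right of each panel. The D-type cyclin bars reach 21.1 to 28.1 FPKM in knockout and 64.0 to 106 FPKM in wild type libraries, Cdk6 takes a larger part of the kinase bars in knockout libraries, and Cdkn2d fills most of their INK4 bars.

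The kinase genes moved in opposite directions. Cdk4 (chromosome 10, 127063534 to 127067920, plus strand), whose product pairs with the D-type cyclins in most cell types, had 89.1, 126 and 94.3 CPM in knockout libraries 1 to 3, against 230.0, 264 and 254 CPM in wild type libraries 1 to 3. No knockout library reached the lowest wild type library. Its mean was 103 ± 20.0 CPM in knockout and 249 ± 17.3 CPM in wild type epidermis (SD, n = 3 each), with a log2 fold change of -1.27 ± 0.22 (SE, edgeR adjusted p = 0.000641).

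Cdk6 (chromosome 5, 3341485 to 3531008, plus strand), which encodes the close relative of CDK4 that is prominent in blood cells, had 133, 106 and 142 CPM in knockout libraries 1 to 3, against 69.8, 52.0 and 72.2 CPM in wild type libraries 1 to 3. Each knockout library was above each wild type library. The mean was 127 ± 18.6 CPM in knockout and 64.7 ± 11.0 CPM in wild type epidermis (SD, n = 3 each), a log2 fold change of 0.97 ± 0.22 (SE, edgeR adjusted p = 0.00325). Macrophage and neutrophil markers were higher in the same libraries, as given above, and their part in the Cdk6 level was not tested.

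Per length Cdk4 remained the more abundant kinase transcript in every library. Cdk6 made up 25.8%, 16.3% and 25.9% of the summed Cdk4 and Cdk6 FPKM in knockout libraries 1 to 3, against 6.58%, 4.38% and 6.20% in wild type libraries 1 to 3. The sum itself was 40.6 ± 4.77 FPKM in knockout and 79.4 ± 5.91 FPKM in wild type epidermis (SD, n = 3 each). The log2 ratio of Cdk6 to Cdk4 averaged -1.80 ± 0.48 in knockout and -4.06 ± 0.33 in wild type libraries, a difference of 2.26 (two-sided exact permutation p = 0.1, the smallest possible, and 0.1 adjusted over 4 comparisons).

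The sequences upstream of the start sites of this pair are shown because the genes are paralogs that changed in opposite directions. RefSeq promoter sequences (GRCm38.p6, the assembly behind mm10) were matched by symbol to 7 of the 10 genes. Entries for Ccnd1, Ccnd2 and Rb1 are not used here. Each line is the 250 bases before a RefSeq start, 5′ to 3′ on the gene's strand, at chr10:127063285-127063534 (plus strand) for Cdk4 and chr5:3343643-3343892 (plus strand) for Cdk6. The Cdk6 window lies inside the span of the counted gene, which begins at 3341485, so it is upstream of the RefSeq start only. Capitals mark matches, on either strand, to the E box CACGTG, the GC box GGGCGG and the TATA box TATAAA.

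Cdk4: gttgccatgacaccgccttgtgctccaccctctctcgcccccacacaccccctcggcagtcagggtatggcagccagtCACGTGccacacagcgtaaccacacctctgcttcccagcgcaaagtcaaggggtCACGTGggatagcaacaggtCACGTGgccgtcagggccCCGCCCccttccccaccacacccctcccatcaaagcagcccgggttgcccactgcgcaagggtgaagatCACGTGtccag

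Cdk6: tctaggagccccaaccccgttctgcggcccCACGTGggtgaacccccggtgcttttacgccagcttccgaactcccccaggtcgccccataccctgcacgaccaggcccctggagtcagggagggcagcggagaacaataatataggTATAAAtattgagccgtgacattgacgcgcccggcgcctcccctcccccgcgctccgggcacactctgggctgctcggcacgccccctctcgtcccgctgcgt

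Upstream of Cdk4 there were 4 matches to the E box, the word bound by MYC and its relatives, and 1 to the GC box. Of 32851 RefSeq windows of the same length, 6.02% held an E box and 0.0213% held 4 or more. The cut-off of 4 is the count of the Cdk4 window itself, which is among the 7 windows that reach it. No such share was taken for another word, so the rarity is a description and not a test. The Cdk6 window held 1 E box and 1 TATA box, a word found in 12.4% of all windows. The GC box occurred in 32.7% of windows. A match is a description of letters and does not show that a factor binds. Myc itself had 54.9 ± 9.88 CPM in knockout and 68.2 ± 7.32 CPM in wild type epidermis (SD, n = 3 each; log2 fold change -0.31 ± 0.21 SE, edgeR adjusted p = 0.237).

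Among the inhibitors, the INK4 genes Cdkn2b and Cdkn2c fell and Cdkn1b did not pass the test. Cdkn2c, which encodes p18INK4c (chromosome 4, 109660876 to 109667189, minus strand), had 6.34, 10.6 and 8.67 CPM in knockout libraries 1 to 3, against 24.9, 34.6 and 31.5 CPM in wild type libraries 1 to 3. The highest knockout library had less than the lowest wild type library. Its mean was 8.53 ± 2.12 CPM in knockout and 30.3 ± 4.96 CPM in wild type epidermis (SD, n = 3 each), with a log2 fold change of -1.83 ± 0.26 (SE, edgeR adjusted p = 0.000145).

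Cdkn2b, which encodes p15INK4b, an inhibitor induced by TGF-beta in keratinocytes (chromosome 4, 89306299 to 89311039, minus strand), had 6.29, 6.47 and 1.98 CPM in knockout libraries 1 to 3, against 10.5, 15.9 and 16.8 CPM in wild type libraries 1 to 3. The groups did not overlap, and knockout library 3 stood below the other knockout libraries. These levels rest on 111, 99 and 32 counts in knockout and 192, 260 and 316 counts in wild type libraries. The mean was 4.91 ± 2.54 CPM in knockout and 14.4 ± 3.41 CPM in wild type epidermis (SD, n = 3 each). The log2 fold change of -1.55 ± 0.41 (SE, edgeR adjusted p = 0.00830) had the widest error of the 9 tested genes.

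Cdkn2a (chromosome 4, 89274471 to 89294653, minus strand) encodes both p16INK4a and the unrelated protein p19ARF from separate first exons, and a count per gene adds up both. It was near the limit of detection, with 11, 15 and 10 counts in knockout libraries 1 to 3, against 0, 0 and 6 counts in wild type libraries 1 to 3. The levels were 0.623, 0.980 and 0.619 CPM in knockout and 0, 0 and 0.318 CPM in wild type libraries, higher in every knockout library, but the gene did not pass the filter on low counts and has no main test. With no filter its log2 fold change was 2.65 (edgeR adjusted p = 0.0297). It also entered the test when knockout library 3 or any 1 wild type library was left out, with adjusted p of 0.0713 without knockout library 3, 0.120 without wild type library 1, 0.127 without wild type library 2 and 0.00628 without wild type library 3. The result therefore depended on a few counts.

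The windows of the reduced INK4 genes are shown beside these values because both genes fell together. They lie at chr4:89311033-89311282 for Cdkn2b and chr4:109666757-109667006, the more upstream of 2 RefSeq starts, for Cdkn2c, both on the minus strand. The Cdkn2c window lies inside the span of the counted gene, which begins at 109667189 on the minus strand, so it is upstream of the RefSeq start only. Capitals mark the cyclic AMP response element TGACGTCA and the GC box GGGCGG.

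Cdkn2b: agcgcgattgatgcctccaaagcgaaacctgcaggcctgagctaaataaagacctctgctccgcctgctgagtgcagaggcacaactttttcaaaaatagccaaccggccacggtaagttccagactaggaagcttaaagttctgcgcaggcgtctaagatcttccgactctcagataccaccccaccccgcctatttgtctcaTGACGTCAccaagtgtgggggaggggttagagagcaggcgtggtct

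Cdkn2c: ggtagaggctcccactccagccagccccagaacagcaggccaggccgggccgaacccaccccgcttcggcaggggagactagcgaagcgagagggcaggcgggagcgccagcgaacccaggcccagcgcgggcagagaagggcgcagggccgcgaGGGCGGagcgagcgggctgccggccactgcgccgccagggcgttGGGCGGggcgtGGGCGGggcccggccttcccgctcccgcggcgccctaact

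The Cdkn2b window held 1 cyclic AMP response element, a word present in 1.55% of all windows, and no GC box, and the Cdkn2c window held 3 GC boxes. Of the 250 bases, 53.6% were G or C in the Cdkn2b window and 77.2% in the Cdkn2c window, and the median of all windows was 52.4%. The words TTTCGCGC, TTTGGCGC and TTTCCCGC, taken for E2F, matched 1.53% of all windows. Among the 10 windows of the 7 genes, the more upstream start of Cdkn2a alone held one. The AP-1 word TGANTCA, present in 6.75% of windows, matched none of the 10. No matches of different words overlapped.

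Cdkn1b, which encodes the CIP/KIP inhibitor p27 (chromosome 6, 134920401 to 134925513, plus strand), had 62.8, 97.4 and 89.9 CPM in knockout libraries 1 to 3, against 102, 89.2 and 93.1 CPM in wild type libraries 1 to 3. The groups overlapped, and knockout library 1 was the lowest of the 6. The mean was 83.3 ± 18.2 CPM in knockout and 94.8 ± 6.64 CPM in wild type epidermis (SD, n = 3 each), with a log2 fold change of -0.19 ± 0.22 (SE, edgeR adjusted p = 0.499). Folds from 0.628 to 1.23 lie within its 95% interval.

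Inhibitor genes outside the 10 were set beside them. Cdkn2d, which encodes p19INK4d, had 25.1, 47.0 and 38.0 CPM in knockout libraries 1 to 3, against 23.0, 25.4 and 22.3 CPM in wild type libraries 1 to 3, and its groups overlapped by 1 library. Its log2 fold change was 0.64 ± 0.25 (SE, edgeR adjusted p = 0.0503), and 0.60 with adjusted p = 0.0288 when libraries with the same number were paired. Without knockout library 1 it was 0.86 (adjusted p = 0.00471). Of the FPKM summed over all 4 INK4 genes, Cdkn2d held 75.5 ± 7.02% in knockout and 41.2 ± 4.87% in wild type epidermis, and Cdkn2c held 10.4 ± 0.551% in knockout and 30.7 ± 1.18% in wild type epidermis (SD, n = 3 each).

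For the 3 listed INK4 genes alone, the log2 ratio of their summed FPKM to that of Cdk4 and Cdk6 was -2.32, -2.30 and -2.92 in knockout libraries 1 to 3, against -2.17, -1.80 and -1.79 in wild type libraries 1 to 3. The mean difference was -0.59 (two-sided exact permutation p = 0.1, the smallest possible, and 0.1 adjusted over 4 comparisons). Without knockout library 3 it was -0.38. With Cdkn2d in the sum, an alternative chosen after seeing the data, the direction turned: the log2 ratio of all 4 INK4 genes to Cdk4 and Cdk6 was -0.66, -0.24 and -0.42 in knockout libraries 1 to 3, against -1.27, -1.07 and -1.12 in wild type libraries 1 to 3. It was higher in every knockout library, by 0.71 on average (two-sided exact permutation p = 0.1, the smallest possible). The lower ratio therefore describes the 3 listed genes and not the INK4 family.

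Cdkn1a, which encodes the CIP/KIP inhibitor p21, had 277, 282 and 240 CPM in knockout and 250.01, 326 and 286 CPM in wild type libraries, with overlapping groups (log2 fold change -0.11 ± 0.23 SE, edgeR adjusted p = 0.707). It held 69.8 ± 5.61% in knockout and 73.9 ± 2.52% in wild type epidermis of the FPKM summed over Cdkn1a, Cdkn1b and Cdkn1c, and that sum was 107 ± 7.25 FPKM in knockout and 107 ± 12.3 FPKM in wild type epidermis (SD, n = 3 each). Cdkn1c, which encodes p57, rose to 28.9 ± 6.17 CPM in knockout, against 15.4 ± 5.30 CPM in wild type epidermis (log2 fold change 0.90 ± 0.30 SE, edgeR adjusted p = 0.0237). Its adjusted p was 0.0544 without knockout library 2, 0.0709 without knockout library 3, 0.0792 without wild type library 1 and 0.0582 with upper-quartile scaling.

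Rb1 (chromosome 14, 73183673 to 73325822, minus strand) had the larger of the 2 rises among the tested genes. It had 54.1, 60.9 and 77.4 CPM in knockout libraries 1 to 3, against 31.6, 26.5 and 28.9 CPM in wild type libraries 1 to 3. Every knockout library exceeded every wild type library. Its mean was 64.1 ± 12.0 CPM in knockout and 29.0 ± 2.59 CPM in wild type epidermis (SD, n = 3 each), a 2.21-fold higher level (log2 fold change 1.14 ± 0.21 SE, edgeR adjusted p = 0.000935).

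Its relatives Rbl1 and Rbl2 encode p107 and p130, which share the pocket that binds E2F factors. Rbl1 had 28.4 ± 2.35 CPM in knockout and 44.7 ± 5.73 CPM in wild type epidermis (log2 fold change -0.65 ± 0.20 SE, edgeR adjusted p = 0.0182). That call was lost without knockout library 2 (adjusted p = 0.0523), wild type library 1 (0.0744) or wild type library 3 (0.0879). Rbl2 had 36.3 ± 10.1 CPM in knockout and 29.9 ± 1.78 CPM in wild type epidermis (adjusted p = 0.339, edgeR). Rb1 thus made up 52.6 ± 1.61% of the FPKM of the 3 pocket protein genes in knockout and 29.7 ± 1.06% in wild type epidermis, and Rbl1 made up 23.9 ± 4.11% in knockout and 45.8 ± 3.00% in wild type epidermis (SD, n = 3 each).

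**Figure D3:**
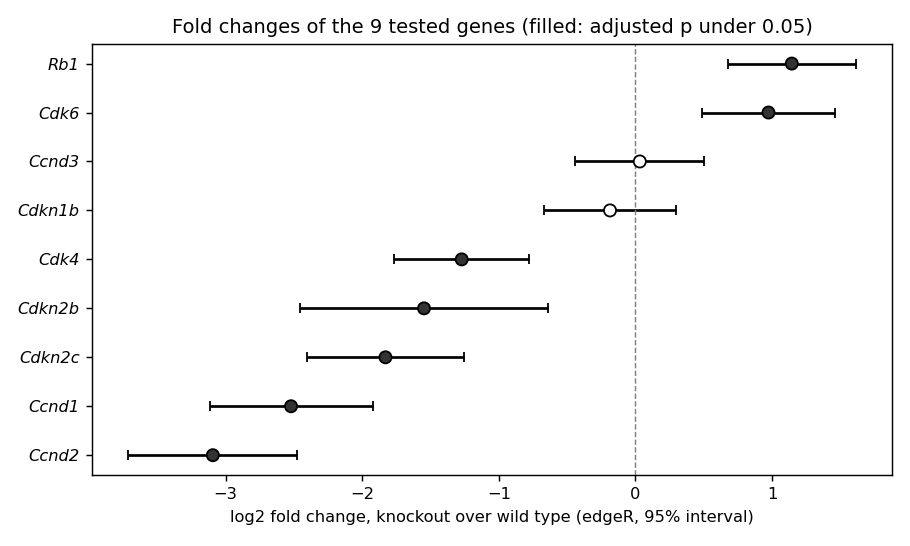
Log2 fold changes of knockout over wild type (points, edgeR) with 95% intervals are drawn for the 9 tested genes, filled where the adjusted p was under 0.05. Rb1 and Cdk6 lie right of 0, the intervals of Ccnd3 and Cdkn1b include 0, and the other 5 genes lie left of it, Ccnd2 farthest at -3.09.

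The order of the 10 genes by FPKM differed between the groups. In knockout epidermis it ran from Cdk4 (31.6 ± 5.98 FPKM) through Cdkn1b (18.2 ± 4.00), Ccnd3 (14.6 ± 2.46), Rb1 (10.6 ± 2.08), Cdk6 (9.03 ± 1.38), Ccnd1 (5.51 ± 0.732), Ccnd2 (4.59 ± 0.803), Cdkn2b (3.50 ± 1.79) and Cdkn2c (3.16 ± 0.782) to Cdkn2a (0.628 ± 0.172 FPKM; SD, n = 3 each). Neighbours from Cdkn1b to Cdk6 and from Ccnd1 to Cdkn2c overlapped in their libraries. In wild type epidermis it ran from Cdk4 (74.9 ± 6.31 FPKM) through Ccnd2 (38.4 ± 10.1), Ccnd1 (31.0 ± 9.54), Cdkn1b (20.3 ± 1.10), Ccnd3 (14.0 ± 2.01), Cdkn2c (11.0 ± 1.96), Cdkn2b (10.1 ± 2.52), Rb1 (4.70 ± 0.349) and Cdk6 (4.51 ± 0.733) to Cdkn2a (0.0888 ± 0.154 FPKM; SD, n = 3 each). There the neighbours Ccnd2, Ccnd1 and Cdkn1b overlapped, as did Ccnd3, Cdkn2c and Cdkn2b, and Rb1 with Cdk6.

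The genes around this core were taken from 5 lists, which held 71 genes, all tested. Of these, 32 (45.1%) were lower and 4 (5.63%) higher in knockout epidermis, where 25.1% of all genes tested were lower and 28.7% higher. E2F target genes made up 16 of the 32 lower genes. Lower shares of 23.5% (pocket protein, E2F and DREAM genes) and 22.2% (cyclin D and p27 turnover) were near that of all genes tested and do not set those lists apart. Among 14 genes of the cyclin E and CDK2 step and further inhibitors, 5 (35.7%) were lower and 1 (7.14%) higher, with a median log2 fold change of -0.35. No list was tested against all genes. The S phase cyclin gene Ccna2 fell (log2 fold change -1.43 ± 0.21 SE, edgeR adjusted p = 0.000206), as did Cdc25a, whose phosphatase activates CDK2 (-1.06 ± 0.21 SE, adjusted p = 0.00147). Cdk2 had 45.8 ± 6.19 CPM in knockout and 83.6 ± 13.3 CPM in wild type epidermis (SD, n = 3 each; edgeR adjusted p = 0.00502). Cks1b and Mnat1, named after their values were seen, were the remaining lower genes (log2 fold changes -0.93 and -0.86). The cyclin E genes did not pass the test: Ccne1 had 7.17 ± 1.18 CPM in knockout and 6.49 ± 0.727 CPM in wild type epidermis, and Ccne2 8.99 ± 2.63 CPM in knockout and 11.7 ± 1.41 CPM in wild type epidermis. The lower genes of this list numbered 3 without knockout library 3, wild type library 2 or wild type library 3. The higher ones numbered 0 without knockout library 2, knockout library 3 or wild type library 1, and 2, Cdkn1c and Cdkn2d, without knockout library 1.

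Of 17 genes for pocket proteins other than Rb1, E2F and DP factors and the DREAM repressor complex, 4 were lower and 1 higher (median log2 fold change -0.31). Tfdp2, a DP partner of E2F factors, fell (-2.17 ± 0.25 SE, edgeR adjusted p = 2.99e-05), as did the repressor E2f8 (-1.95 ± 0.24 SE, adjusted p = 5.32e-05). The others were Rbl1 and, named after its values were seen, the activator gene E2f2 (-1.35). E2f1, an activator of DNA synthesis genes, rose to 41.8 ± 3.39 CPM in knockout, against 26.2 ± 3.48 CPM in wild type epidermis (edgeR adjusted p = 0.0160). This rise, the only one in the list, was not called without wild type library 2 (adjusted p = 0.0917) or with upper-quartile (0.0576) or library-size scaling (0.0598). Among 18 E2F target genes 16 (88.9%) were lower and none was higher (median -1.13), where 25.1% of all genes tested were lower. The topoisomerase gene Top2a fell (-1.88 ± 0.21 SE, edgeR adjusted p = 2.26e-05), as did the helicase gene Mcm5 (-1.89 ± 0.21 SE, adjusted p = 2.38e-05). The targets that did not pass, named after their values were seen, were Pcna (log2 fold change -0.28) and Cdc6 (-0.42).

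Of 9 genes that control the turnover of D-type cyclins and p27, 2 were lower and 1 higher (median -0.16). Fbxo4, whose ubiquitin ligase has been linked to cyclin D1 breakdown, rose to 14.6 ± 2.34 CPM in knockout, against 4.22 ± 0.660 CPM in wild type epidermis (edgeR adjusted p = 0.000224). Fzr1, an activator of the anaphase-promoting complex (-0.63 ± 0.20 SE, adjusted p = 0.0208), and the kinase gene Dyrk1b (-0.66 ± 0.22 SE, adjusted p = 0.0266) fell. Neither was called without wild type library 2 or wild type library 3, where no gene of this list was lower, and Fzr1 alone was called without knockout library 2 or wild type library 1. Of 13 regulators of the Cdkn2a and Cdkn2b locus 5 (38.5%) were lower and 1 (7.69%) higher (median -0.41). Of all genes tested, 25.1% were lower and 28.7% higher, and the list was not tested against them. The Polycomb genes Cbx7 (-2.17 ± 0.26 SE, edgeR adjusted p = 4.72e-05) and Ezh2 (-1.46 ± 0.19 SE, adjusted p = 8.71e-05), whose products silence that locus, fell, and Ets1, a transcription factor that activates CDKN2A in human cells, rose (2.03 ± 0.24 SE, adjusted p = 3.88e-05). The remaining lower regulators, named after their values were seen, were Ets2 (-0.93), Ring1 (-0.77) and Cbx8 (-0.93). Bmi1 (-0.41, edgeR adjusted p = 0.104), Rnf2 (0.05, adjusted p = 0.876), Kdm6b, Id1, Tbx2, Tbx3 and Myc did not pass the main test. Without knockout library 3 Id1 was also higher, making 2.

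**Figure D4:**
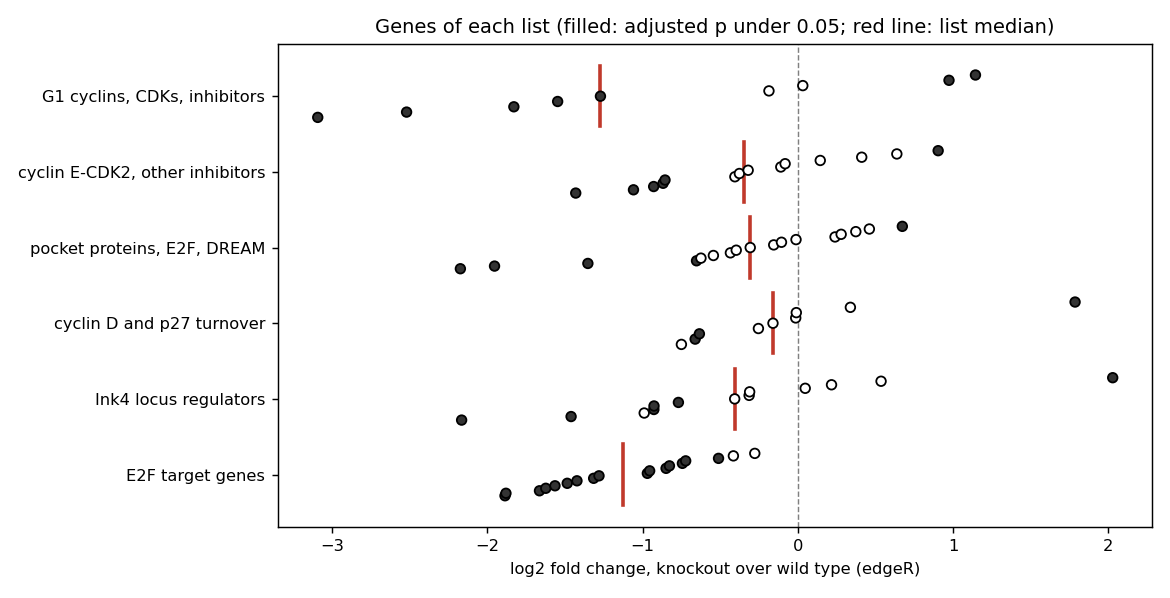
Each point is the log2 fold change of 1 tested gene, knockout over wild type, in rows by list; filled points had an adjusted p under 0.05 and red lines are list medians. The medians run from -1.27 for the G1 genes (9 tested) and -1.13 for E2F targets to -0.16 for genes of cyclin D and p27 turnover.

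The tested protein-coding gene most like each of these genes across the 6 libraries, by Pearson's r of log2 CPM, was Cstf2 for Ccnd1 (r = 0.999), 2900026A02Rik for Ccnd2 (0.999), St8sia6 for Ccnd3 (0.969), Rfc3 for Cdk4 (1.000), Tbcel for Cdk6 (0.999), Rnf5 for Cdkn1b (0.995), Tmem238 for Cdkn2b (0.998), Echs1 for Cdkn2c (0.999) and Nufip2 for Rb1 (0.999). With 6 libraries in separate groups such values are common. Of 14098 genes compared, 1359 had r above 0.95 with Ccnd2 and 2164 with Rb1, but 4 with Ccnd3 and 7 with Cdkn1b.

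Some of the gene spans, taken from first to last base with introns, overlap others on the opposite strand. Where counted bases are shared, reads cannot be told apart without a known strand setting. Whether the shared bases were counted ones was not tested. The gene length of Rb1 used for FPKM is 6015 bases, far less than its span. Cdk4 shares 641 bases with Tspan31, which had 2813 counts in knockout and 2276 in wild type libraries in all. Ccnd1 shares 1771 bases with Oraov1 (1353 counts in knockout, 1153 in wild type libraries) and Ccnd3 361 bases with Bysl (1102 in knockout, 1472 in wild type libraries). Rb1 spans Lpar6 (398 counts in knockout, 1138 in wild type libraries) and part of Rcbtb2 (1559 in knockout, 1368 in wild type libraries). In the libraries in which Rb1 had more counts, Lpar6 thus had fewer and Rcbtb2 had more. The part of shared reads in the Rb1 level was not tested.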

How the data were processed

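The deposited tables hold raw read counts and FPKM for 54532 genes in 6 libraries. HISAT2 2.0.5 and featureCounts 1.5.0-p3 on mm10 are listed in the submitters' processing notes, which here give no strand setting or annotation. The deposited FPKM equalled counts over gene length and a constant per library.

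Counts were tested with edgeR 4.0.16 in R 4.3.3 (TMM factors, filterByExpr with minimum count 10 and total 15, robust quasi-likelihood test, genotype as the only term), after a check on simulated counts. CPM uses the TMM factors. The SE is |log2 fold change| / sqrt(F), and 95% intervals rest on it. Within-library FPKM ratios were compared by exact permutation (scipy 1.17.1). Alternatives were other scalings and filters, DESeq2 1.42.0, limma 3.58.1 (limma-trend) on log2 FPKM with pseudocounts of 1 or 0.1, a fit to protein-coding genes, a replicate block and libraries left out.

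Same-numbered libraries deviated together from their group means (r = 0.232, 0.339 and 0.176, other pairs -0.323 to 0.073). With every same-numbered pair over 0.1 the numbers were taken to pair libraries, from the data and not the labels. The main test, with genotype as its only term, left this pairing out. It entered only the replicate block and the paired exact tests. No libraries were duplicates (chi-square over degrees of freedom 34.9 to 95.9 within groups). Without stated separate animals, p-values reflect only library spread, which may be technical.

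The genes and lists were chosen with earlier results of these data known. Named list genes are the 2 with the smallest adjusted p per direction among those called, fixed inhibitors, pocket proteins, Cdk2 and E2f1, and the most abundant marker per cell type; others were named after their values were seen.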

Additional observations from a re-analysis of the deposited data

How the results depend on the processing

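The 5 lower genes (Ccnd1, Ccnd2, Cdk4, Cdkn2b and Cdkn2c) and the 2 higher ones (Cdk6 and Rb1) were called in the same direction in the main test and all 17 alternatives run, and Ccnd3 and Cdkn1b in none. Log2 fold changes ranged from -2.75 to -2.26 for Ccnd1, -3.28 to -2.80 for Ccnd2, -1.47 to -1.17 for Cdk4, -1.97 to -1.17 for Cdkn2b, -2.03 to -1.54 for Cdkn2c, 0.78 to 1.09 for Cdk6 and 0.95 to 1.31 for Rb1. Leaving out each library gave 5 lower and 2 to 3 higher members, the third being Cdkn2a, 23 to 35 lower and 3 to 5 higher pathway genes, and 3388 to 4458 lower and 4313 to 5017 higher genes in all. Upper-quartile scaling left 2 higher pathway genes; it moved the median of all genes to -0.22, and library-size scaling to -0.18, and both turned the balance of all genes, to 4151 higher and 5147 lower (upper-quartile) and 4198 higher and 4715 lower (library size). With the replicate block (libraries of the same number paired) 5 members were lower and 2 higher, so it changed no call of a member; among pathway genes 35 were lower and 5 higher, and Cdkn2d, Rbbp4, Rnf123 and Tbx3 were gained. In the main comparison the log2 ratio of Cdk6 to Cdk4 differed by 2.26 and that of Ccnd1 to Ccnd2 by 0.60. The summed D-type cyclins differed by -58.7 FPKM and the ratio of the 3 listed INK4 genes by -0.59. Pairing by number cannot change these mean differences with 3 libraries in each group. Only the exact p changed, to 0.25 for each, the smallest for 3 pairs. Leaving out single libraries gave 2.07 to 2.54 for the ratio of Cdk6 to Cdk4, 0.53 to 0.64 for Ccnd1 to Ccnd2, -68.4 to -47.5 FPKM for the summed D-type cyclins and -0.71 to -0.38 for the ratio of the 3 listed INK4 genes to Cdk4 and Cdk6, which was -0.30 with a pseudocount of 1 (exact permutation p = 0.3). That ratio turned to 0.71 (exact permutation p = 0.1) with Cdkn2d in the sum, an alternative chosen after seeing the data. Depth limits Cdkn2a most, whose 42 counts in all allow no firm fold. Cdkn2b also rests on few counts, with 111, 99 and 32 in knockout libraries 1 to 3. The cause of the shifts between alternatives was not tested.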
